A study of Homo sapiens with 9 samples.

Results

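The 10 genes described here encode the machinery that licenses DNA for replication: the helicase subunits MCM2 (ENSG00000073111.14), MCM3 (ENSG00000112118.20), MCM4 (ENSG00000104738.18), MCM5 (ENSG00000100297.16), MCM6 (ENSG00000076003.5) and MCM7 (ENSG00000166508.18), the helicase loaders CDC6 (ENSG00000094804.12) and CDT1 (ENSG00000167513.9), the CDT1 inhibitor GMNN, which encodes geminin (ENSG00000112312.10), and the sliding clamp PCNA (ENSG00000132646.11). They were chosen by Ensembl gene ID for their role in replication. All 10 of 10 were found among the 19569 gene IDs of the deposited footprint count table, and all 10 passed the filter on low counts, which left 13920 IDs for testing. Ribosome footprints, the mRNA fragments that translating ribosomes protect, were counted in a human T lymphoblast line, Jurkat clone E6-1, grown from a leukaemia that proliferates without stimulation. Resting cells, which the labels call control, gave 3 libraries, and cells after 5 h and after 12 h of activation gave 3 each. The labels name no genetic change in any library. Activation used plates coated with anti-CD3 antibody at 10 µg/mL and anti-CD28 antibody in the medium at 5 µg/mL. As 1 leukaemia-derived clone, the line is a limited model of a resting T cell from blood.

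Before a cell copies its DNA, the origin recognition complex together with CDC6 and CDT1 places pairs of MCM2-7 rings on DNA at replication origins, where they wait as the inactive core of the replicative helicase. Geminin binds CDT1 and stops further loading once DNA synthesis is under way, and CDT1 is also destroyed after it docks on PCNA, the clamp that holds DNA polymerases on their template. Blood T cells at rest lack most of this machinery and build it after stimulation through CD3 and CD28, whereas a cycling line such as Jurkat already makes it.

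Many genes of this pathway are known targets of E2F transcription factors, which drive the entry into DNA synthesis, so the promoters were read for E2F words and are shown for a stretch that holds at least 1 of them. The windows, from RefSeq on GRCh38.p14, run from 250 bases before to 50 bases after an annotated transcript start. They were used for 8 members, MCM2, MCM3, MCM6, MCM7, PCNA, CDC6, CDT1 and GMNN, with 12 windows in all, and not for MCM4 and MCM5. Capitals mark a match to TTTCCCGC, TTTCGCGC, TTTGCCGC or TTTGGCGC on either strand, and each stretch is written 5′ to 3′ on the strand of its gene. A further match in MCM3, at bases -174 to -167 from the start, and one in MCM7, at -187 to -180, lie outside the stretches shown.
MCM2 (chr3:127598395-127598424, plus strand): tgggtcacgtgaaccactTTTCGCGCGAAA
MCM3 (chr6:52284735-52284764, minus strand): cgggaagagttcggaagtTTTCGCGCcggg
MCM6 (chr2:135876444-135876603, minus strand): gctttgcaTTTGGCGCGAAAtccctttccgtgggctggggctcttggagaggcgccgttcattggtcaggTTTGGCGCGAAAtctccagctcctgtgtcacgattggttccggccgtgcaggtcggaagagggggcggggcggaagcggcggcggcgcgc
MCM7 (chr7:100101398-100101477, minus strand): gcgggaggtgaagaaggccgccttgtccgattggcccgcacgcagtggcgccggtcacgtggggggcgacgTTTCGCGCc
CDC6 (chr17:40287865-40287894, plus strand): ggaacgctgtggccattcggaTTTGGCGCg
CDT1 (chr16:88803709-88803788, plus strand): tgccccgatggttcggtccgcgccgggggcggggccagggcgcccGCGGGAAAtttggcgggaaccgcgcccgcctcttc
GMNN (chr6:24775313-24775412, plus strand): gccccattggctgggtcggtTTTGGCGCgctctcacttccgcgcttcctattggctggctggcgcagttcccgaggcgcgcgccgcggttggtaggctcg
PCNA (chr20:5126623-5126702, minus strand): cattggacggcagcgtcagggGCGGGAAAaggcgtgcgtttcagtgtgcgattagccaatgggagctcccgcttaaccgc

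At least 1 E2F word stood in a window of all 8 members, and in 8 of their 12 windows, against 3.31% of 35116 windows of the same length and 3.99% of 27305 genes. The MCM6 window held 4 matches, which lie in 2 copies of a stretch with TTTGGCGC on the strand of the gene and TTTCGCGC on the opposite strand, and those of MCM2, MCM3 and MCM7 held 2 each, while 0.145% of all windows held at least 2. In MCM2 the match lay just downstream of the annotated start, at bases 3 to 14, and in CDC6 at bases 8 to 15, whereas in CDT1, GMNN and PCNA it lay upstream. The CCAAT box, the motif bound by NF-Y, was found on either strand in 9 of the 12 windows, against 34.6% of all windows. Both motifs stood together in 6 of the 12 windows, against 1.22% of all windows. The 6 were 1 window each of MCM3, MCM6, MCM7, PCNA, CDC6 and GMNN, and the motifs overlapped at 1 place, in MCM7. The motif TTTGAA, known from genes that peak in mitosis, was in 0 of the 12 windows, against 15.2% of all windows and 18.2% of genes. The 12 windows of 8 members are too few to tell 0 from these shares. A match is a description of the letters, and no binding of a factor was measured here.

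**Figure D1:**
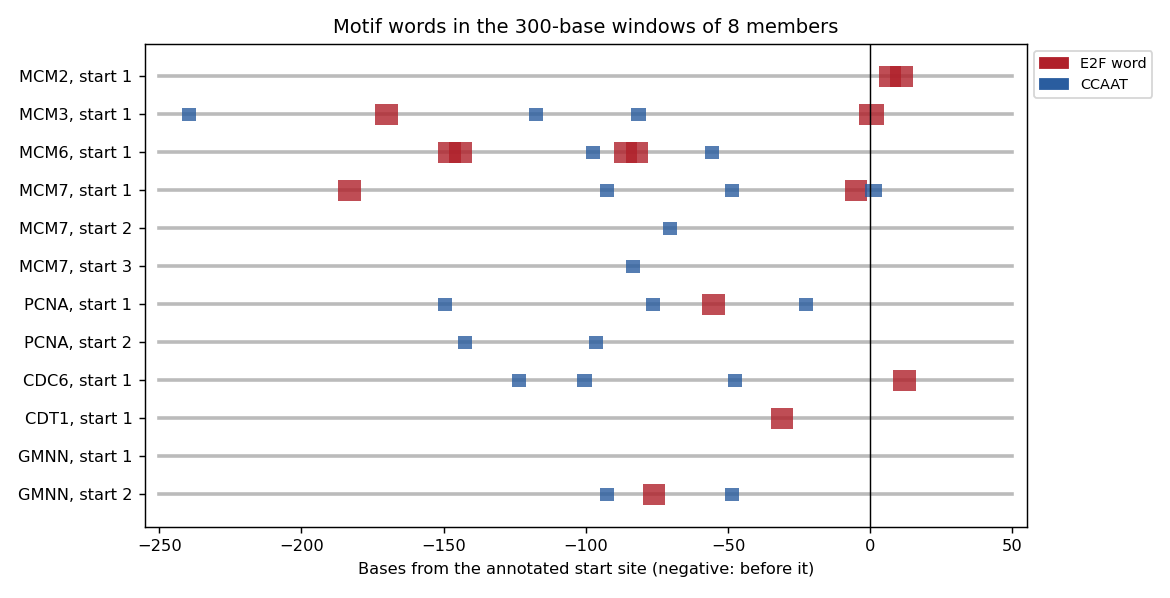
Positions of the motif matches in the 12 promoter windows of the 8 members, as distance from the annotated transcript start in bases. Each row is 1 window; E2F words were found in 8 windows, CCAAT in 9 and TTTGAA in 0.

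The shallowest library, 12 h replicate 2, held 4343515 counts and the deepest, 5 h replicate 3, held 18506509, and a member had between 437 and 16383 counts in a library. Levels are CPM, counts scaled to a library size that is equal for all libraries, after TMM scaling, whose factors were 0.895 to 0.951 in the resting libraries and 0.997 to 1.06 in the activated ones, so a change shared by all genes of a cell is not visible. A footprint level reflects both the amount of an mRNA and its translation, and fewer cells making a protein cannot be told apart from less RNA or less translation per cell. The protocol in the labels names an mRNA library kit used on total RNA and does not describe the footprint isolation. No table here pairs the other IDs with gene names, so the T cell identity of the line was not checked against its markers.

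Footprints of all 6 helicase subunits fell at 5 h relative to resting cells, with changes of -22.0% for MCM7 to -36.1% for MCM6. MCM3 had 405.4, 414.1 and 436.3 CPM in resting cells, 269.8, 277.8 and 278.1 CPM at 5 h and 329.4, 321.6 and 302.8 CPM at 12 h. The 5 h libraries all lay below the 12 h ones and these below the resting ones, with no overlap. MCM6 had 544.2, 684.5 and 613.9 CPM in resting cells, 356.9, 394.8 and 426.0 CPM at 5 h and 443.2, 451.9 and 450.8 CPM at 12 h. It showed the same order of groups, and the resting libraries spread more widely than the 12 h ones. MCM4 had 510.8, 607.3 and 553.4 CPM in resting cells, 387.3, 354.7 and 390.8 CPM at 5 h and 379.9, 372.9 and 328.2 CPM at 12 h. For MCM4 both activated groups lay below every resting library and overlapped with each other.

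MCM2 had 267.3, 258.1 and 307.0 CPM in resting cells, 200.4, 178.4 and 203.9 CPM at 5 h and 191.7, 231.2 and 220.8 CPM at 12 h. The activated groups overlapped, with 12 h replicate 1 inside the 5 h range, and none reached a resting library. MCM5 had 230.8, 214.9 and 254.8 CPM in resting cells, 169.1, 146.7 and 160.0 CPM at 5 h and 197.2, 209.5 and 201.7 CPM at 12 h. The 12 h libraries of MCM5 stood between the other groups, and the highest of them came close to the lowest resting one. MCM7 had 703.3, 659.0 and 749.6 CPM in resting cells, 536.5, 548.8 and 561.5 CPM at 5 h and 567.6, 551.5 and 537.9 CPM at 12 h. Its activated groups overlapped almost fully, and both lay below the resting range.

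At 5 h versus resting, edgeR's quasi-likelihood test called all 6 subunits lower at an adjusted p under 0.05, and 18.4% of all tested IDs fell by the same rule. The log2 fold change was -0.65 ± 0.09 for MCM6 (SE, 3 libraries in each group, adjusted p = 3.02e-06 by edgeR), -0.61 ± 0.08 for MCM3 (adjusted p = 1.48e-06 by edgeR) and -0.36 ± 0.07 for MCM7 (adjusted p = 0.000400 by edgeR), the smallest of the 6. MCM4, MCM5 and MCM2 lay between these, at -0.56 ± 0.08, -0.56 ± 0.09 and -0.51 ± 0.10. The median over the 6 was -0.56, against 0.07 over all tested IDs, and 9.52% of tested IDs had a lower value than MCM6. Of the 6 subunits, 6 did not overlap between the groups, as did 45.7% of all tested IDs in either direction. Here and below, shares of non-overlap were not computed for IDs of like abundance. Abundant IDs fell more often in general: of the 726 IDs averaging 256 CPM or more, where MCM3, MCM4, MCM6 and MCM7 stood, 53.7% fell and the median was -0.24, and of the 2769 IDs between 64 and 256 CPM, where MCM2 and MCM5 stood, 33.1% fell with a median of -0.10. All 6 values thus lay below the median of IDs of like abundance.

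At 12 h versus resting, 5 of the 6 subunits fell, against 19.3% of all tested IDs. MCM4 fell by 0.63 ± 0.09 on the log2 scale (a change of -35.3%, adjusted p = 3.26e-06 by edgeR), MCM6 by 0.45 ± 0.09, MCM3 by 0.40 ± 0.08, MCM2 by 0.37 ± 0.10 and MCM7 by 0.35 ± 0.07. MCM5 missed the threshold, at -0.20 with a 95% interval of -0.39 to -0.01 and an adjusted p of 0.0892 by edgeR, although its 12 h libraries all lay below the resting ones, and without resting replicate 2 it was called (adjusted p = 0.0291 by edgeR). The median over the 6 was -0.39, against 0.04 over all tested IDs. Of the IDs averaging 256 CPM or more, 52.1% fell at 12 h with a median of -0.25. Of the 6 subunits, 6 did not overlap in CPM, as did 45.8% of all tested IDs. As shares of a library's total counts, without TMM scaling, MCM2, MCM5 and MCM7 did overlap. Both comparisons use the same resting libraries and are therefore not independent of each other.

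Between the activated times, MCM5 was the subunit that passed the test. It rose by 27.8% at 12 h versus 5 h (log2 fold change 0.35 ± 0.09, adjusted p = 0.00553 by edgeR), where 11.6% of all tested IDs rose and 13.5% fell. Of the IDs in the abundance range of MCM5, 64 to 256 CPM, 21.8% rose and 21.6% fell. MCM3 and MCM6 had log2 fold changes of 0.21 ± 0.08 and 0.19 ± 0.09 with no overlap between the groups but adjusted p of 0.0534 and 0.116 by edgeR. MCM2, MCM7 and MCM4 had 0.14 (95% interval -0.06 to 0.34), 0.01 (-0.14 to 0.16) and -0.07 (-0.24 to 0.11), and their groups overlapped. Non-overlap was thus seen for 3 of the 6, as for 39.1% of all tested IDs.

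**Figure D2:**
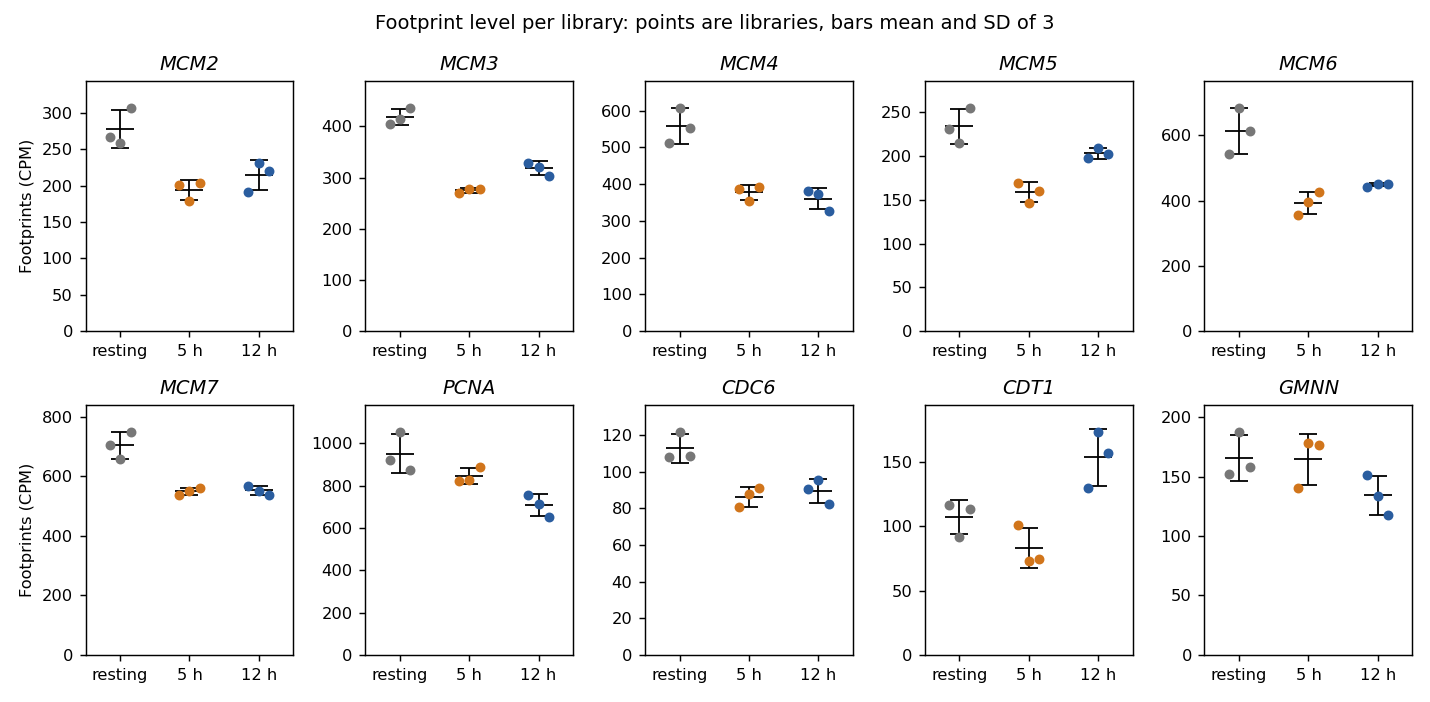
Footprint level of each member in CPM (vertical axis, from 0, scaled per panel) in resting, 5 h and 12 h cells; points are the 3 libraries of a group and bars the mean and SD. All 6 MCM panels are highest in resting cells, while CDT1 is highest at 12 h.

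Summed over the 6 subunits, the footprints amounted to 2662, 2838 and 2915 CPM in resting cells, 1920, 1901 and 2020 CPM at 5 h and 2109, 2139 and 2042 CPM at 12 h. The 5 h, 12 h and resting libraries formed 3 separate ranges. The sum changed by -30.6% at 5 h and by -25.3% at 12 h relative to resting cells, and by 7.67% at 12 h relative to 5 h, with a two-sided exact permutation p of 0.1 in each case, the smallest that 3 against 3 libraries allow. As a share of a library's total counts, without TMM scaling, the 6 genes took 0.259% ± 0.0155 in resting cells, 0.199% ± 0.00356 at 5 h and 0.221% ± 0.00397 at 12 h (SD, n = 3 each). By these shares the fall was smaller at both times than in CPM.

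Because the subunits assemble as a ring with 1 copy of each, their footprints were also set against each other within each library, which needs no library scaling. Relative to the mean of the other 5, MCM4 was 0.28 log2 units lower at 12 h than in resting cells and 0.25 lower at 12 h than at 5 h, and MCM5 was 0.24 and 0.26 higher in the same comparisons. MCM7 was 0.22 higher at 5 h than in resting cells and 0.16 lower at 12 h than at 5 h. In these 6 of 18 subunit comparisons the groups did not overlap, and each had an exact permutation p of 0.1, which cannot pass 0.05 in this design. A count over the mean of MCM2-7 did not overlap for 62.0% of IDs at 5 h versus resting, 54.4% at 12 h versus resting and 42.7% at 12 h versus 5 h. That ratio is unlike those of the subunits, because the MCM2-7 mean itself fell against resting cells. Whether the share for the subunits is unusual was therefore not tested. The ratios of MCM2, MCM3 and MCM6 to the other 5 overlapped between groups in every comparison.

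MCM7 was also the only member with annotated miRNAs inside its span, on the minus strand of chromosome 7 in GRCh38.p14. Of the 6 mature sequences there, 3 are shown, 1 arm of each hairpin, because the series is about miRNAs in T cell activation. The seed, bases 2 to 8, is in capitals.
hsa-miR-106b-5p (chr7:100094043-100094063): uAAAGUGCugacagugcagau
hsa-miR-93-5p (chr7:100093815-100093837): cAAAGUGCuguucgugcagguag
hsa-miR-25-3p (chr7:100093571-100093592): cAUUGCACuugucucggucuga

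The miRNAs miR-106b-5p and miR-93-5p share the seed AAAGUGC, and miR-25-3p has AUUGCAC. No miRNA level was measured in these libraries, so the fall of MCM7 footprints says nothing of their amounts. AP4M1 overlaps the span of MCM7 and a long non-coding RNA that of MCM2, and no source states that the counting used strand, so reads could be shared there.

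The helicase loaders took different courses. CDC6, the ATPase that joins the origin recognition complex to bring in the helicase, fell at both times, and CDT1, which carries MCM2-7 to the origin, was lower at 5 h and then rose above its resting level at 12 h. CDC6 had 108.0, 121.9 and 108.6 CPM in resting cells, 80.45, 87.71 and 91.06 CPM at 5 h and 90.47, 95.68 and 82.28 CPM at 12 h. In CPM, every activated library lay below every resting one, and the 5 h and 12 h libraries overlapped. As a share of a library's total counts, without TMM scaling, 12 h replicate 2 (0.01006%) lay just above resting replicate 1 (0.01003%). CDC6 fell by 23.3% at 5 h (log2 fold change -0.38 ± 0.10, adjusted p = 0.00521 by edgeR) and by 20.8% at 12 h (-0.34 ± 0.10, adjusted p = 0.0144 by edgeR), although the 12 h call was lost without 12 h replicate 3 (adjusted p = 0.0838 by edgeR). Between 12 h and 5 h its change was 0.05, with a 95% interval of -0.17 to 0.26. Of the IDs in its abundance range, 64 to 256 CPM, 33.1% fell at 5 h and 32.1% at 12 h.

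CDT1 had 116.8, 91.88 and 113.2 CPM in resting cells, 100.9, 73.09 and 74.98 CPM at 5 h and 129.9, 173.8 and 157.4 CPM at 12 h. Every 12 h library exceeded every other library, and 5 h replicate 1 lay inside the resting range. CDT1 was the only member that rose relative to resting cells, by 42.7% at 12 h (log2 fold change 0.51 ± 0.13, adjusted p = 0.00358 by edgeR), where 15.8% of all tested IDs rose. In that comparison 74.6% of tested IDs had a lower value, and 22.2% of the IDs in its abundance range, 64 to 256 CPM, rose. At 12 h versus 5 h it rose by 85.0% (log2 fold change 0.89 ± 0.13, adjusted p = 1.70e-05 by edgeR), and 95.8% of tested IDs had a lower value in that comparison. Both rises held in all 16 alternative settings, at 0.40 to 0.62 against resting cells and 0.79 to 1.04 against 5 h. The fall at 5 h was less firm: the log2 fold change was -0.38 ± 0.13 with an adjusted p of 0.0290 by edgeR, the groups overlapped, and the call was lost without resting replicate 1 or 3 and without 5 h replicate 2 or 3, with adjusted p of 0.0911 to 0.139.

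GMNN, whose product geminin holds CDT1 inactive, did not pass the test at 5 h and was lower at 12 h. It had 152.2, 187.9 and 157.7 CPM in resting cells, 140.0, 178.0 and 176.4 CPM at 5 h and 151.1, 133.6 and 117.9 CPM at 12 h. The 5 h and resting libraries covered much the same range, and the 12 h libraries all lay below the resting ones, by a narrow margin for 12 h replicate 1. At 5 h the log2 fold change was -0.01 with a 95% interval of -0.24 to 0.23, a sign that turned under upper quartile scaling (0.014). At 12 h GMNN fell by 19.0% (log2 fold change -0.30 ± 0.12, adjusted p = 0.0443 by edgeR), a call that was lost in 7 of 16 alternative settings, among them without resting replicate 2 (adjusted p = 0.179 by edgeR), 12 h replicate 2 (0.0957) or 12 h replicate 3 (0.213). At 12 h versus 5 h it had -0.30 ± 0.11 with an adjusted p of 0.0632 by edgeR, which passed in 4 alternative settings, without resting replicate 2, 5 h replicate 1 or 12 h replicate 1 among them.

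PCNA was called lower at 12 h and not at 5 h. It had 922.1, 1055 and 874.8 CPM in resting cells, 820.0, 828.2 and 889.6 CPM at 5 h and 756.1, 711.3 and 651.4 CPM at 12 h. The 12 h libraries all lay below the others, and 5 h replicate 3 lay above the lowest resting library. At 5 h its log2 fold change of -0.17 ± 0.08 did not pass (95% interval -0.33 to -0.01, adjusted p = 0.102 by edgeR), and it was called without resting replicate 3 (adjusted p = 0.0452 by edgeR) or 5 h replicate 3 (0.0418). At 12 h PCNA fell by 25.7% relative to resting cells (log2 fold change -0.43 ± 0.08, adjusted p = 0.000140 by edgeR) and by 16.5% relative to 5 h (-0.26 ± 0.08, adjusted p = 0.0159 by edgeR). The second call was lost without 5 h replicate 3, 12 h replicate 2 or 12 h replicate 3, with adjusted p of 0.0518 to 0.129 by edgeR. Of the IDs averaging 256 CPM or more, where PCNA stood, 52.1% fell at 12 h versus resting, with a median of -0.25. At 12 h versus 5 h, 29.3% of them fell. RefSeq lists 4 pseudogenes of PCNA by symbol and an antisense gene that overlaps it, so its counts could be split or shared by the counting.

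Over all 10 members, 8 fell and 0 rose at 5 h versus resting, against 18.4% and 16.0% of all tested IDs. In the abundance ranges of the members, 33.1% of IDs of 64 to 256 CPM and 53.7% of IDs of 256 CPM or more fell. At 12 h versus resting 8 fell and 1 rose, against 19.3% and 15.8% of all tested IDs. At 12 h versus 5 h 1 fell and 2 rose, against 13.5% and 11.6% of all tested IDs, so the count for this last comparison was near the background. The median log2 fold change of the 10 was -0.45 at 5 h and -0.36 at 12 h relative to resting cells, and 0.09 at 12 h relative to 5 h, against 0.07, 0.04 and -0.05 over all tested IDs. In CPM, groups did not overlap for 7, 10 and 5 of the 10 members in these comparisons. The shares over all tested IDs were 45.7%, 45.8% and 39.1%, and the last of the counts was near the background too. These shares include 6179 IDs averaging under 16 CPM, and they were not computed for IDs of like abundance. The count for 12 h versus resting depended on TMM scaling. As shares of a library's total counts, MCM2, MCM5, MCM7, CDC6 and GMNN overlapped between 12 h and resting libraries.

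**Figure D3:**
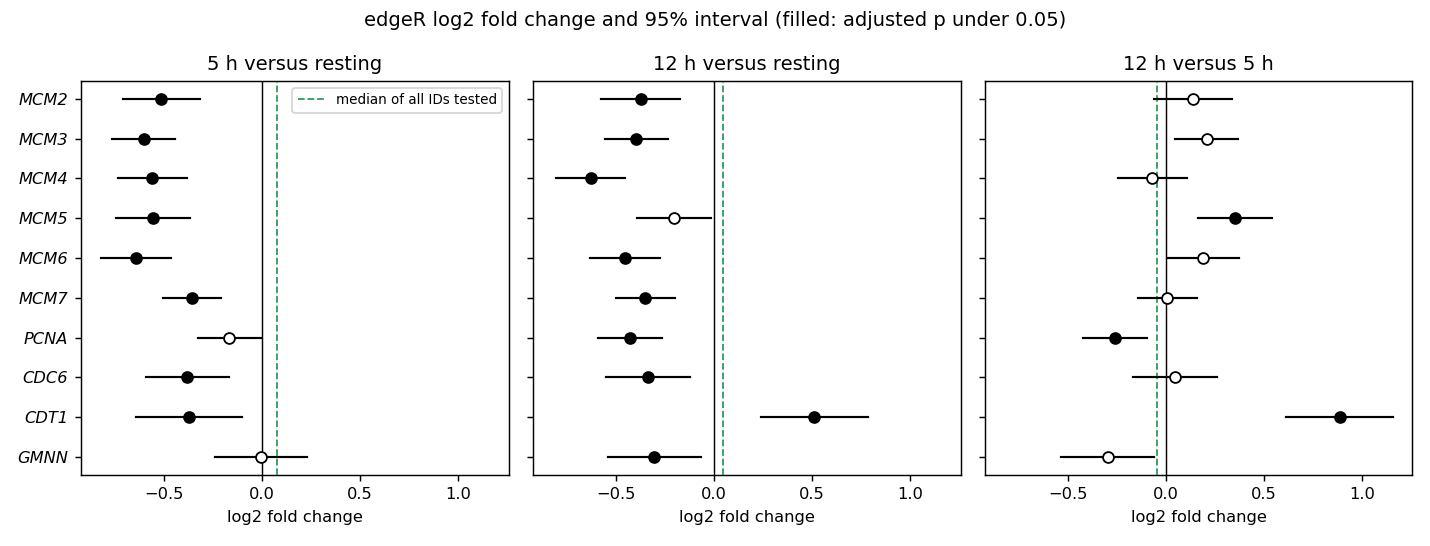
edgeR log2 fold change of each member with its 95% interval in the 3 comparisons; filled points passed the adjusted p threshold of 0.05 and the dashed line is the median of all tested IDs. The 6 MCM subunits are below 0 at 5 h versus resting, and CDT1 is the member farthest to the right at 12 h.

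**Figure D4:**
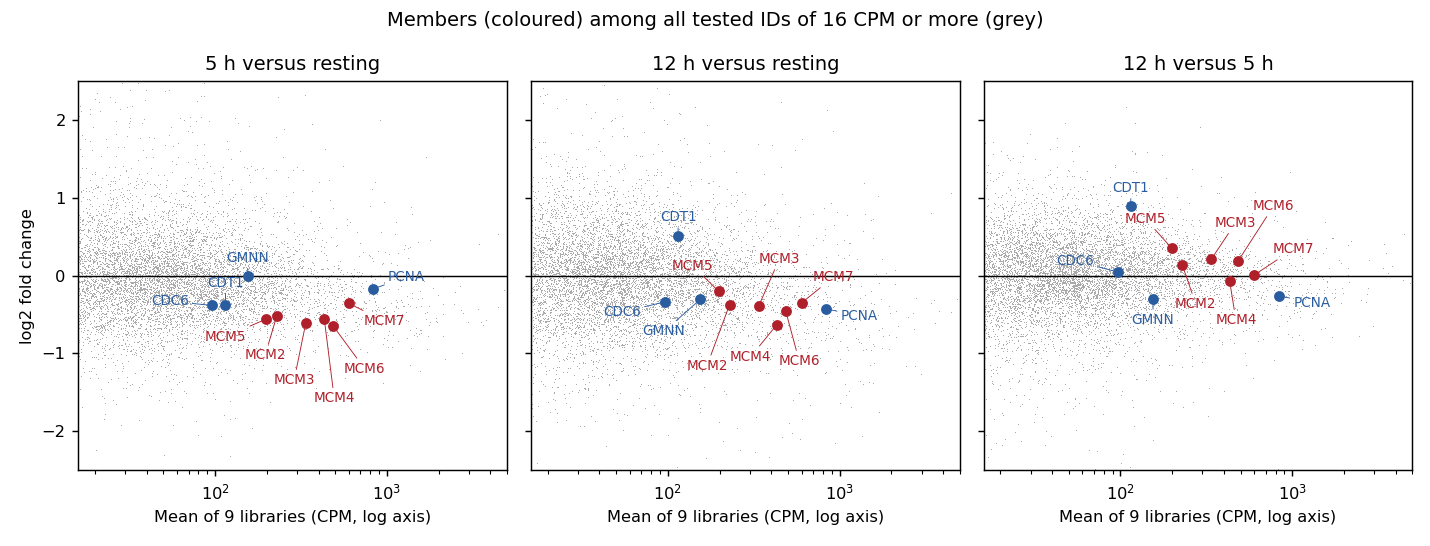
log2 fold change against the mean level over 9 libraries (CPM, log axis) for the members (coloured and named) and for other tested IDs of 16 CPM or more (grey). The grey cloud bends below 0 at high levels in both comparisons with resting cells, and the MCM subunits lie in its lower part at 5 h.

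The balance between the members was followed as ratios of counts within a library, 13 ratios in 3 comparisons. None of the 39 exact permutation tests could pass, since the smallest p is 0.1 and the smallest Benjamini-Hochberg adjusted value was 0.229. CDT1 over GMNN, the loader over its inhibitor, was 0.767, 0.489 and 0.718 in resting cells, 0.721, 0.411 and 0.425 at 5 h and 0.860, 1.302 and 1.335 at 12 h. Gene lengths were not used, so only the change of this ratio between libraries can be read. At 12 h it was 1.77 times as high as in resting cells and 2.28 times as high as at 5 h. The groups did not overlap in either comparison, with an exact permutation p of 0.1 for both. How often other IDs separate likewise over GMNN was not computed, so whether this is unusual was not tested. The 12 h library with the lowest ratio, replicate 1, stood close to the highest resting one.

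Against the mean of MCM2-7, CDT1 was 1.89 times as high at 12 h as in resting cells and 1.69 times as high at 12 h as at 5 h. CDT1 over CDC6, the 2 loaders, was 1.80 times as high at 12 h as in resting cells, also with no overlap. How often other IDs separate likewise over CDC6 was not computed. The ratio of CDC6 to MCM2-7 had log2 shifts of 0.15 at 5 h and 0.06 at 12 h relative to resting cells and -0.09 at 12 h relative to 5 h, and the groups overlapped each time, although 2 of the 3 libraries at 5 h lay above every resting one. PCNA was 1.30 times and GMNN 1.44 times as high relative to MCM2-7 at 5 h as in resting cells, again with no overlap. In that comparison neither gene was called itself, at log2 fold changes of -0.17 and -0.01, whereas the median over MCM2-7 was -0.56. By 12 h the ratios of PCNA and GMNN to MCM2-7 overlapped with the resting ones again, at log2 shifts of -0.03 and 0.09. Of the 4 partner genes, 2 had a ratio to MCM2-7 with no overlap at 5 h versus resting. At 12 h this was so for 1 versus resting and for 3 versus 5 h. The shares over 12791 IDs were 62.0%, 54.4% and 42.7%, so the counts against resting cells were not above the background.

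**Figure D5:**
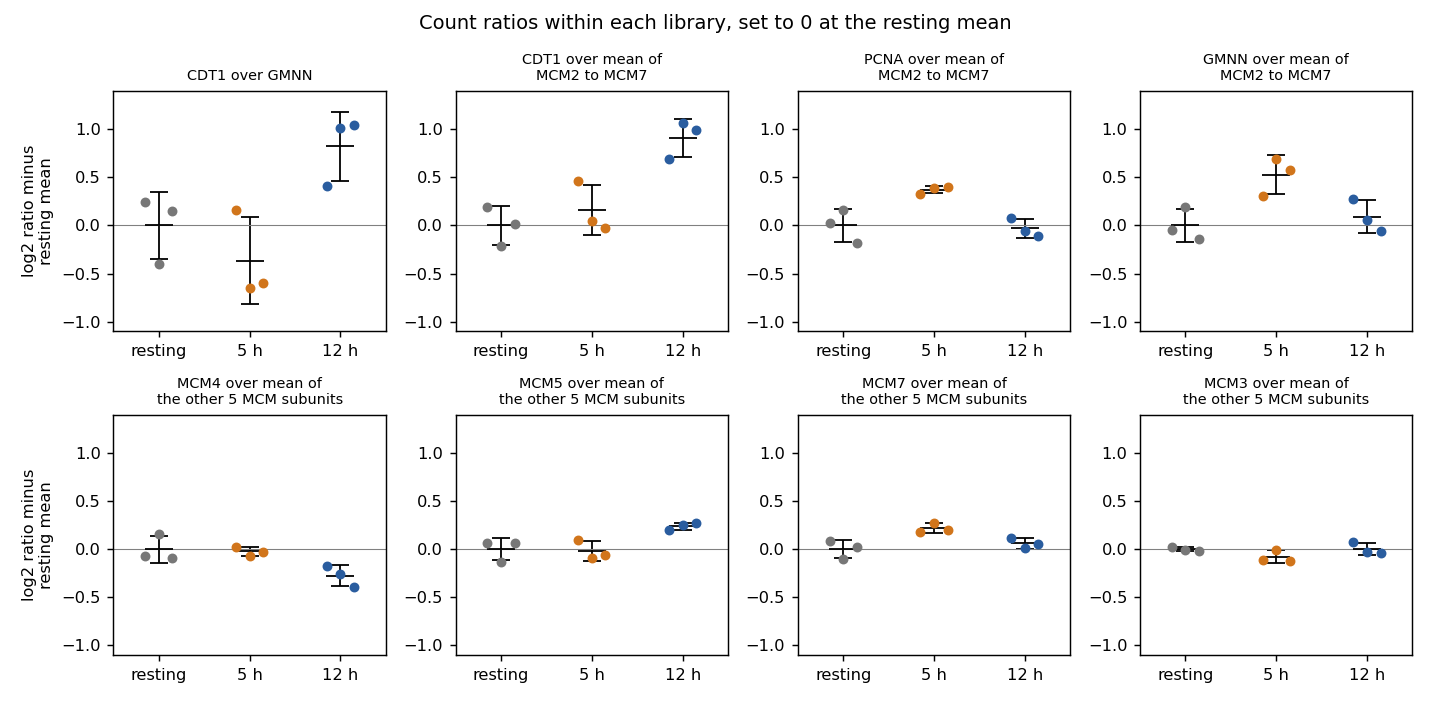
Ratios of counts within each library as log2 difference from the resting mean (vertical axis), in resting, 5 h and 12 h cells; points are the 3 libraries of a group and bars the mean and SD. CDT1 over GMNN is highest at 12 h. PCNA and GMNN over MCM2-7 are highest at 5 h, where summed MCM2-7 was lowest.

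The members also differed in how they varied between libraries of 1 group, a comparison made after the values had been seen. CDT1 and GMNN deviated from their group means to opposite sides in 8 of 9 libraries and CDT1 and CDC6 likewise in 8, whereas GMNN and CDC6 deviated to the same side in 9 of 9 and PCNA and GMNN in 8. In resting replicate 2, CDT1 was 0.22 log2 units below its group mean while GMNN, MCM6, PCNA, MCM4 and CDC6 were 0.19, 0.16, 0.15, 0.13 and 0.11 above theirs. In 5 h replicate 1, CDT1 was 0.30 above and GMNN 0.23 below. Such patterns were not rare: of 7165 other IDs averaging at least 20 CPM, 19.6% lay opposite to CDT1 in at least 8 of 9 libraries and 8.28% on its side. With GMNN, 16.2% lay on the same side in at least 8 libraries and 3.99% in all 9. Libraries of 1 group thus differed in the ratio of CDT1 to GMNN, and what moves with this was not tested.

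The shape over the 9 libraries was compared with the mean profile of MCM2-7, as the root mean square difference of centred log2 CPM. The subunits themselves, which make up that mean, lay at 0.0480 for MCM3 to 0.127 for MCM4. CDC6 lay within this range at 0.102, and PCNA, GMNN and CDT1 lay outside it at 0.207, 0.273 and 0.438. Of 7168 other IDs averaging at least 20 CPM, 253, or 3.53%, lay as close as MCM4, and 103 as close as CDC6. None of them can be named from the tables used here.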

How the data were processed

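The deposited table holds whole-number footprint counts per versioned Ensembl ID, without normalization. Per the submitters' processing notes, cutadapt 3.2, Bowtie, bedtools, RSEM, DESeq2 and GRCh38.p13 were used, with no role stated for each. A second table deposited by the authors holds log2 values for 11572 IDs, which equal log2 of count over size factor plus 1. It served as an alternative.

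All 9 libraries entered 1 edgeR 4.0.16 fit (R 4.3.3) with TMM scaling, filterByExpr and the quasi-likelihood test, and p-values were Benjamini-Hochberg adjusted over 13920 IDs. The common biological coefficient of variation was 15.6%. The series' design text calls the replicates biological. The rule for named genes was all 10 members, the most changed genes of 7 pathway lists and the 5 most similar IDs with a symbol. The lists and cell type markers could not be matched to IDs. Members and lists were chosen with earlier results of these data known.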

Additional observations from a re-analysis of the deposited data

Results flagged for a closer look

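For 3 members the effect at 12 h differed from the effect at 5 h in a direct test, which is the comparison of 12 h with 5 h in edgeR's fit of all libraries. CDT1 differed by 0.89 on the log2 scale (adjusted p = 1.70e-05 by edgeR): it rose at 12 h relative to resting cells and fell at 5 h. MCM5 differed by 0.35 (adjusted p = 0.00553 by edgeR), with a smaller deficit at 12 h than at 5 h. PCNA differed by -0.26 (adjusted p = 0.0159 by edgeR), with a larger deficit at 12 h. CDT1 and MCM5 passed the test in all 16 alternative settings. PCNA missed the threshold in 4 of them, where its log2 difference was -0.27 to -0.19.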

How the results depend on the processing

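Of 480 combinations of a member's log2 fold change and an alternative setting, 440 kept direction and side of the threshold, 17 lost a call, 15 gained one and 8 changed sign without a call. The 6 falls of MCM2-7 at 5 h, both rises of CDT1 and the rise of MCM5 at 12 h versus 5 h held in all 16 settings. Sign changes were those of GMNN at 5 h versus resting, at 0.014 with upper quartile scaling and -0.095 to 0.091 with 1 library left out, of MCM7 at 12 h versus 5 h, at -0.0081 without the low-count filter and -0.014 to 0.053 with 1 library left out, and of CDC6 at 12 h versus 5 h, at -0.0081 to 0.11 with 1 library left out. At 12 h versus 5 h, 4 members rose and 5 were called both with upper quartile scaling and with only the 6 libraries compared, while 2 fell without the low-count filter and 0 with limma on the authors' log2 table. With 1 library left out, 0 to 2 fell and 2 to 5 were called. The labels name no pairing of same-numbered libraries. Correlations of their deviations were -0.062 to 0.090 over all tested IDs, low-count ones among them, which cannot exclude a pairing. A block for replicate number ended 1 call, GMNN at 12 h versus resting (adjusted p = 0.0563 by edgeR), and gave CDT1 0.90 at 12 h versus 5 h. CDT1 at 5 h (adjusted p = 0.105) and PCNA at 12 h versus 5 h (adjusted p = 0.170) were not called by limma. The pathway lists, the cell type markers and levels per coding length were not run, because no table used here pairs the IDs with symbols or lengths. With 3 libraries in each group, log2 fold changes as large as -0.38, that of CDT1 at 5 h, were called or not according to the setting. The same held for CDC6 (-0.34) and GMNN (-0.30) at 12 h versus resting, and for MCM3 (0.21) at 12 h versus 5 h. The fall of MCM7 at 5 h (-0.36) was called in all 16 settings. The cause was not tested.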
